A study of Homo sapiens with 24 samples.

Results

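LNCaP is a prostate cancer cell line that grows in response to androgens, and LNCaP CE is a chronic exposure derivative of it. The derivative was grown in rising amounts of Acetalax over passages until its resistance was stable, and was kept in drug-free medium for 2 weeks before RNA was taken. The comparison is of 3 libraries of LNCaP CE cells given 10 µM Acetalax for 4 h with 3 libraries of LNCaP CE cells that received no treatment; no vehicle is stated for these controls. All 6 were chosen by their titles, out of 24 libraries in 8 groups of 3 that also cover parental LNCaP and the PC3 prostate cancer line in its parental and chronic exposure forms. All were grown from epithelial cancer cell lines, the LNCaP forms in RPMI-1640, and the labels give 1 batch for all libraries. Polyadenylated RNA was sequenced with a directional kit, paired-end, and the levels below are TPM values, which scale reads to gene length and library total. The labels do not say how many clones a derivative holds, nor that the replicates were separate cultures, so the p-values measure the spread between these libraries.

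Acetalax is oxyphenisatin acetate, a diphenol ester once used as a laxative. It is known to act on TRPM4, a cation channel that opens when calcium rises inside a cell and lets sodium in; in cells rich in the channel, the drug leads to swelling and death by rupture. Sodium entry and swelling are conditions to which cells are known to respond through ion pumps, volume-regulated anion channels and stress-activated transcription. A 4 h exposure is short enough for messages of early response genes, and of genes under feedback control such as those of sterol synthesis, to change.

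The libraries labelled LNCaP CE did not carry the markers of the LNCaP line. The 16 genes of the luminal prostate list summed to 113–128 TPM in LNCaP CE Acetalax libraries and 134–140 TPM in LNCaP CE control libraries, against 6144–9818 TPM in LNCaP parental control libraries, and FKBP5 was the 1 member whose group means reached 10 TPM in LNCaP CE. KLK3, which encodes prostate-specific antigen, averaged 0.387 ± 0.516 TPM in LNCaP CE Acetalax libraries and 0.777 ± 1.06 TPM in LNCaP CE control libraries (SD, n = 3 each), against 4399 TPM in LNCaP parental controls. HOXB13, a homeobox factor of prostate cells, averaged 0.417 and 0.477 TPM in the same LNCaP CE groups, against 259 TPM in LNCaP parental controls. Both defining prostate genes were thus at or near 0 in both LNCaP CE groups. Epithelial markers summed to 13.3–15.4 TPM with Acetalax and 14.3–17.9 TPM without it, against 2105–2594 TPM in LNCaP parental controls, while mesenchymal markers, led by vimentin, summed to 5826–5872 and 5260–5605 TPM, against 223–538 TPM. Vimentin alone averaged 4610 TPM with Acetalax and 4128 TPM without it, so these sums mostly reflect 1 gene. Not every mesenchymal marker was higher: COL1A1 averaged 8.95 and 12.2 TPM, against 16.2 TPM in LNCaP parental controls. Over 18334 genes the mean log level of LNCaP CE controls correlated at r = 0.946 with PC3 CE controls (Spearman's rho 0.940), at 0.784 with LNCaP parental controls and at 0.747 with PC3 parental controls. These values describe 1 profile against another, with genes as points that are not independent. The 10 markers of the PC3 line summed to 11–13.8 TPM with Acetalax and 11.7–13.1 TPM without it. They summed to 29.69–31.05 TPM in PC3 CE controls and 7.04–13.47 TPM in LNCaP parental controls. Since they were low in PC3 CE as well, they say little about the origin of LNCaP CE. The name LNCaP CE is therefore used below only as the label of these libraries.

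**Figure D1:**
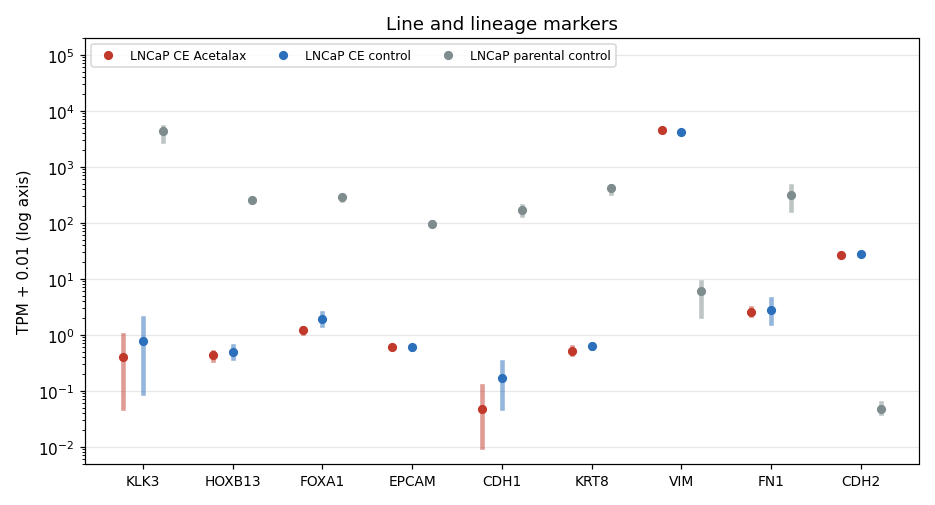
Levels of 9 line and lineage markers, as TPM + 0.01 on a log axis, in LNCaP CE Acetalax, LNCaP CE control and LNCaP parental control libraries; points are means of 3 libraries and bars run from the lowest to the highest. Both LNCaP CE groups sit far below LNCaP parental controls for KLK3, HOXB13, FOXA1, EPCAM, CDH1 and KRT8, and far above them for VIM and CDH2. FN1 is drawn as well, and no such statement is made for it.

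The 6 libraries were deep and alike. Summed expected counts were 49518404–57728014 in LNCaP CE Acetalax libraries and 45844310–50561256 in LNCaP CE control libraries, and libraries of a group correlated at 0.9953–0.9959 and 0.9949–0.9954 across genes. Mitochondrial transcripts took 1.11–1.47% of counts with Acetalax and 1.30–1.54% without it, and 12877–13013 genes exceeded 1 TPM with Acetalax, against 13201–13329 without it. Of 15947 genes tested with edgeR's quasi-likelihood test, 7884 (49.4%) passed an adjusted p of 0.05, 3920 higher with Acetalax (24.6%) and 3964 lower (24.9%). Most of these differences were small: the median absolute log2 fold change of the called genes was 0.284, and 3636 of them differed by less than 1.2-fold. At least 2-fold, 339 genes were higher (2.13%) and 310 lower (1.94%). The protein-coding ones were at low levels, with median control levels of 0.363 and 1.6 TPM, against 18.6 TPM over all protein-coding genes tested. When the spread was estimated over all 12 LNCaP libraries, 648 genes were called higher and 788 lower, and 1392 of these 1436 were among the 7884, all with the same sign. The split depended on scale: limma on log2(TPM + 1) called 1370 genes higher and 5168 lower, with the median gene at −0.11, against −0.01 on the scale of TMM-adjusted counts. Abundant genes also differed as a class. The 10 most abundant genes took 5.05–5.07% of counts with Acetalax and 4.51–4.56% without it, and of the genes in the highest of 10 bins of mean level 63.8% were called higher and 7.77% lower. The lists below are given by counts and, for many of them, also on log2(TPM + 1) or with the spread of 12 libraries. Shares by counts are to be read against the 24.6% higher and 24.9% lower of all genes. Values on log2(TPM + 1) are to be read against 1370 higher and 5168 lower of 15947 genes. Those with 12 libraries are to be read against 648 higher and 788 lower of 19393 genes.

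**Figure D2:**
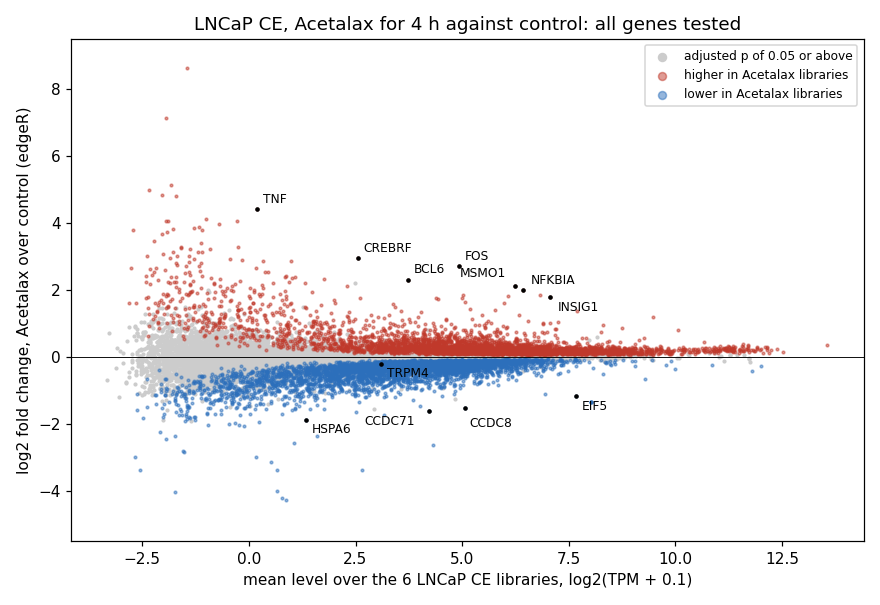
Log2 fold change of Acetalax over control in LNCaP CE (vertical, edgeR) against the mean level of each gene over the 6 libraries (horizontal, log2(TPM + 0.1)), one point per gene tested, coloured by whether it passed an adjusted p of 0.05. Abundant genes on the right lie mostly just above 0, and EIF5 is among the few abundant genes far below it.

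TRPM4, the known target channel, was low in these cells and differed little with the drug. It stood at 6.98, 6.46 and 8.90 TPM in LNCaP CE Acetalax libraries and at 9.73, 9.66 and 8.87 TPM in LNCaP CE control libraries. The groups overlapped, since the highest Acetalax value lay just above the lowest control value. The log2 fold change was −0.21 ± 0.08 (SE; 95% interval −0.376 to −0.0348; adjusted p = 0.0443), a call that did not hold with the spread of 12 libraries (adjusted p = 0.312), without Acetalax replicate 1 (0.123), without Acetalax replicate 2 (0.226) or without control replicate 2 (0.224). For scale, TRPM4 averaged 91.0 ± 8.05 TPM in LNCaP parental Acetalax libraries and 98.9 ± 7.85 TPM in LNCaP parental controls, 15.5 ± 0.916 and 17.4 ± 1.78 TPM in the PC3 CE pair, and 66.4 ± 3.20 and 45.3 ± 4.62 TPM in the PC3 parental pair. Of 12 TRPM channels and sulfonylurea-receptor partners 6 were tested, and 0 were higher and 3 lower, with a median log2 fold change of −0.34. With 12 libraries 0 were higher and 1 lower, and the same held on log2(TPM + 1). TRPM7, a magnesium-permeable channel fused to a kinase, had the firmest difference, at 12.2 ± 1.04 TPM with Acetalax and 22.9 ± 2.22 TPM without it (log2 fold change −0.74 ± 0.05, adjusted p = 4.35e-09, and 0.0299 with 12 libraries). KCNJ11, the pore of the ATP-sensitive potassium channel, was the other member called besides TRPM4, at 0.81 TPM with Acetalax and 1.2 TPM without it.

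Ion pump and volume control genes were tested as the known machinery of sodium and water balance. Of 15 sodium and potassium transport genes tested 4 were higher (26.7%) and 1 lower, near the 24.6% of all genes for rises, and the median log2 fold change was 0.01. With the spread of 12 libraries 0 of them were higher and 0 lower, and on log2(TPM + 1) 1 and 3. Among 15 volume and osmotic genes 7 were higher (46.7%, against 24.6% of all genes) and 3 lower, with a median of 0.27. With the spread of 12 libraries 1 was higher and 1 lower, and on log2(TPM + 1) 2 and 3. The subunits of the volume-regulated anion channel moved in opposite directions. LRRC8A, the obligatory subunit, stood at 27.84, 29.93 and 28.42 TPM with Acetalax and 23.56, 23.64 and 23.37 TPM without it (log2 fold change 0.43). LRRC8D stood at 22.86, 18.56 and 18.96 TPM with Acetalax and 32.36, 29.88 and 33.44 TPM without it (−0.59). NFAT5, the main osmotic transcription factor, differed by 0.31 and its target SLC5A3, a myo-inositol carrier, by −0.23.

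Genes of sterol supply rose together. Genes of cholesterol synthesis and uptake are controlled by SREBP2, a membrane-held transcription factor that is cut free and enters the nucleus when sterols in the endoplasmic reticulum run low. Of 25 tested, 20 were higher (80%) and 2 lower, against 24.6% and 24.9% of all genes, with a median log2 fold change of 0.40; with the spread of 12 libraries 12 were higher and 0 lower, and on log2(TPM + 1) 19 and 1. INSIG1, which holds the SREBP complex back when sterols are plentiful and is itself a target (chr7:155297776-155310235, GRCh38 as are all positions here), stood at 195.39, 198.48 and 205.03 TPM with Acetalax, and at 70.09, 66.6 and 67.12 TPM in control libraries. No Acetalax value came near a control value, and the difference was 3.44-fold (adjusted p = 1.02e-15). MSMO1, a sterol C4-methyl oxidase (chr4:165327623-165343160), had the largest fold of the list, at 118.53, 121.9 and 121.64 TPM with Acetalax, against 30.7, 27.89 and 32.09 TPM in controls (4.34-fold). IDI1, which isomerises isopentenyl diphosphate, averaged 174 ± 2.53 TPM with Acetalax and 92.0 ± 3.81 TPM without it (adjusted p = 1.59e-12). Elsewhere on the route HMGCS1, SC5D, SQLE, CYP51A1 and DHCR7 were higher by 0.83, 0.84, 0.72, 0.72 and 0.65 on the log2 scale. The members that were lower were ABCA1, the pump that exports cholesterol (5.67 TPM with Acetalax, 8.31 TPM without), and INSIG2 (7.96 and 9.90 TPM). SREBF2, the gene of SREBP2, differed by 0.25.

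Genes of fatty acid synthesis, under the related factor SREBP1, were higher in 11 of 15 (73.3%) and lower in 2 (13.3%), with a median log2 fold change of 0.21. LPIN1, a phosphatidate phosphatase, differed by 0.50, ACSS2, which makes acetyl-CoA from acetate, by 0.44, FASN, the synthase, by 0.33, and SCD, the desaturase, by 0.26. With the spread of 12 libraries 3 were higher and 0 lower, and on log2(TPM + 1) 5 and 2. SREBF1 itself did not pass (0.06).

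Early response genes rose as a group, led by FOS. These genes are transcribed within minutes of a signal without new protein synthesis, and many of their products are transcription factors. Of 28 tested 19 were higher (67.9%) and 1 lower, with a median log2 fold change of 0.50 (6 and 0 with 12 libraries; 15 and 1 on log2(TPM + 1)). FOS, a subunit of AP-1 (chr14:75278774-75282230), stood at 49.79, 50.88 and 52.81 TPM with Acetalax, against 8.69, 8.36 and 9.83 TPM in controls, a 6.61-fold difference (adjusted p = 1.22e-15, and 0.031 with 12 libraries). JUNB averaged 154 ± 3.55 TPM with Acetalax and 83.1 ± 2.81 TPM without it, and EGR1, a zinc-finger factor, 79.0 ± 2.41 and 45.9 ± 2.32 TPM. CCN1, a matrix protein induced by serum, was 2.57-fold higher. Not all members moved: JUN, ATF3 and IER2 did not pass, at 0.09, 0.11 and 0.05, and BTG2, an antiproliferative gene, was lower by 0.23. The call of EGR1 did not hold with the spread of 12 libraries (adjusted p = 0.118).

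Feedback genes that damp these signals were mixed, and their counts depended on scale. Of 14 ERK feedback and PEA3 genes 9 were higher (64.3%) and 2 lower (14.3%) by counts, with a median of 0.18. On log2(TPM + 1) 5 were higher and 5 lower, with a median of −0.02, and with 12 libraries 2 and 0. SPRY1, a Sprouty inhibitor of receptor tyrosine kinase signalling, was the most abundant, at 966 ± 25.5 TPM with Acetalax and 454 ± 30.6 TPM without it (2.29-fold, adjusted p = 1.25e-12; 0.294 with 12 libraries). DUSP2, a phosphatase of MAP kinases, was lower at 11.3 TPM with Acetalax and 20.9 TPM without it. Among 19 regulators of mRNA decay 11 were higher (57.9%) and 4 lower (21.1%), with 4 and 0 for 12 libraries and 8 and 5 on log2(TPM + 1). ZFP36, tristetraprolin, which binds AU-rich messages such as that of TNF and speeds their decay, stood at 49.11, 52.1 and 48.14 TPM with Acetalax, against 14.27, 14.76 and 16.55 TPM in controls (3.56-fold). BTG1, which recruits deadenylase, averaged 20.9 ± 0.276 TPM with Acetalax and 9.97 ± 0.989 TPM without it.

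NF-kB feedback genes rose alongside. NF-kB dimers wait in the cytoplasm bound to inhibitor proteins, and on release they switch on genes that include their own inhibitors. Of 25 genes 16 passed the filter on low counts, 11 of them higher (68.8%) and 4 lower (25%), with a median of 0.30. With 12 libraries 6 were higher and 1 lower, and on log2(TPM + 1) 8 and 4. NFKBIA, the inhibitor IkB-alpha (chr14:35401511-35404749), stood at 146.79, 125.08 and 129.84 TPM with Acetalax, against 37.7, 36.07 and 37.68 TPM in controls (3.98-fold, adjusted p = 2.53e-13; 1.78e-05 with 12 libraries). TNFAIP3, the ubiquitin-editing inhibitor A20, was rarer, at 1.19, 1.43 and 1.36 TPM with Acetalax, against 0.28, 0.39 and 0.15 TPM in controls. BIRC3, an inhibitor of apoptosis, stood at 2.28, 1.66 and 2.42 TPM with Acetalax, against 0.31, 0.23 and 0.34 TPM in controls. The cytokine TNF stood at 2.1, 1.84 and 2.02 TPM with Acetalax, against 0.07, 0.02 and 0.2 TPM in controls. Its control libraries held only 3, 1 and 10 rounded counts, so its log2 fold change of 4.42 ± 0.37 is imprecise. The subunits moved less: RELB by 0.53, REL by 0.31, NFKB1 by 0.28 and RELA by −0.10. TNFAIP2 and NFKBIE were lower, by 0.62 and 0.29, as was LIF, by 0.23.

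The promoters of 3 of these inhibitors are shown because the kB motif in them is the sequence to which NF-kB dimers are known to bind. Each runs from 250 bases before to 50 bases after the RefSeq start (GRCh38.p14), 5′ to 3′ on the gene's strand, with each match to GGANTTTCC on either strand in capitals. NFKBIA lies at chr14:35404700-35404999 on the minus strand and holds 2 matches, TNFAIP3 at chr6:137867009-137867308 on the plus strand and NFKBIZ, a nuclear IkB, at chr3:101827740-101828039 on the plus strand.
NFKBIA: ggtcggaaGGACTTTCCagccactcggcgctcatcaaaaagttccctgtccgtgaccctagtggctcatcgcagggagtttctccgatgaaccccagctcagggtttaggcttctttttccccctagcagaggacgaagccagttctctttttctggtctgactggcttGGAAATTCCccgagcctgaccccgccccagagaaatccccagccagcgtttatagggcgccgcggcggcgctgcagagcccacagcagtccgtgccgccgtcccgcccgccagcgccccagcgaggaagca
TNFAIP3: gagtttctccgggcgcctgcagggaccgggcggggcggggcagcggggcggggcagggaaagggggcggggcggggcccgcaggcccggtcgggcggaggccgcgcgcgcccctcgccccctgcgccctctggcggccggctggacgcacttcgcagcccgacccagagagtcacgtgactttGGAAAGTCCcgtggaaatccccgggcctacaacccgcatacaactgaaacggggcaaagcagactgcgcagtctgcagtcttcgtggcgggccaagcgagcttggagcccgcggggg
NFKBIZ: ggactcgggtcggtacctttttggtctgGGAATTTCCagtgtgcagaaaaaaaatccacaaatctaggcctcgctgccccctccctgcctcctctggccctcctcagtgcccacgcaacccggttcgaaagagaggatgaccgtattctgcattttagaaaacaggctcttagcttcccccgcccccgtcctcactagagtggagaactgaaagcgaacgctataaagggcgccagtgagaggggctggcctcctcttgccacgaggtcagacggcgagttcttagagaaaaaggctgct
The motif was in 6 of the 13 tested list members with a promoter in the table (46.2%), and in 1.64% of all 35116 promoters of the same length. The 6 were NFKBIA, TNFAIP3, NFKBIZ, NFKB1, REL and ICAM1, all called higher. A match describes the letters only, and the list was made of genes chosen as part of the NF-kB pathway, so its share is no test. NFKBIZ, with the same kind of match, was at 3.96 TPM with Acetalax and 3.36 TPM without it (log2 fold change 0.27, adjusted p = 0.0113), so its difference was far smaller than that of NFKBIA.

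The other large rises were in genes of varied function. CREBRF, which destabilises the factor CREB3 and is induced by starvation (chr5:173056352-173139284), had the largest fold change of the genes with at least 5 TPM, at 9.75, 9.40 and 10.61 TPM with Acetalax, against 1.89, 1.34 and 1.45 TPM in controls (7.76-fold, adjusted p = 1.02e-13; 0.00978 with 12 libraries). BCL6, a transcriptional repressor (chr3:187721377-187745727), stood at 21.75, 20.25 and 21.65 TPM with Acetalax, against 5.68, 4.66 and 4.72 TPM in controls (4.95-fold). KLHL24, a ubiquitin ligase adaptor, averaged 31.2 ± 2.90 TPM with Acetalax and 11.5 ± 0.659 TPM without it. PNRC1, a proline-rich coregulator, averaged 102 ± 1.51 and 32.3 ± 1.74 TPM in the same order. CTSK, cathepsin K, averaged 5.17 ± 0.320 TPM with Acetalax and 1.36 ± 0.410 TPM without it. CCNG2, an unconventional cyclin that FOXO factors are known to induce and that goes with cell cycle arrest, averaged 48.3 ± 1.44 TPM with Acetalax and 18.5 ± 0.938 TPM without it (3.12-fold). The FOXO list as a whole was mixed, with 6 of 14 higher (42.9%) and 2 lower (14.3%), and 2 and 3 on log2(TPM + 1). TXNIP, an inhibitor of glucose uptake, was lower at 3.40 TPM with Acetalax and 7.49 TPM without it. The calls of MAFF (1.76) and KLHL24 (1.73) did not hold with the spread of 12 libraries (adjusted p of 0.288 and 0.0808).

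**Figure D3:**
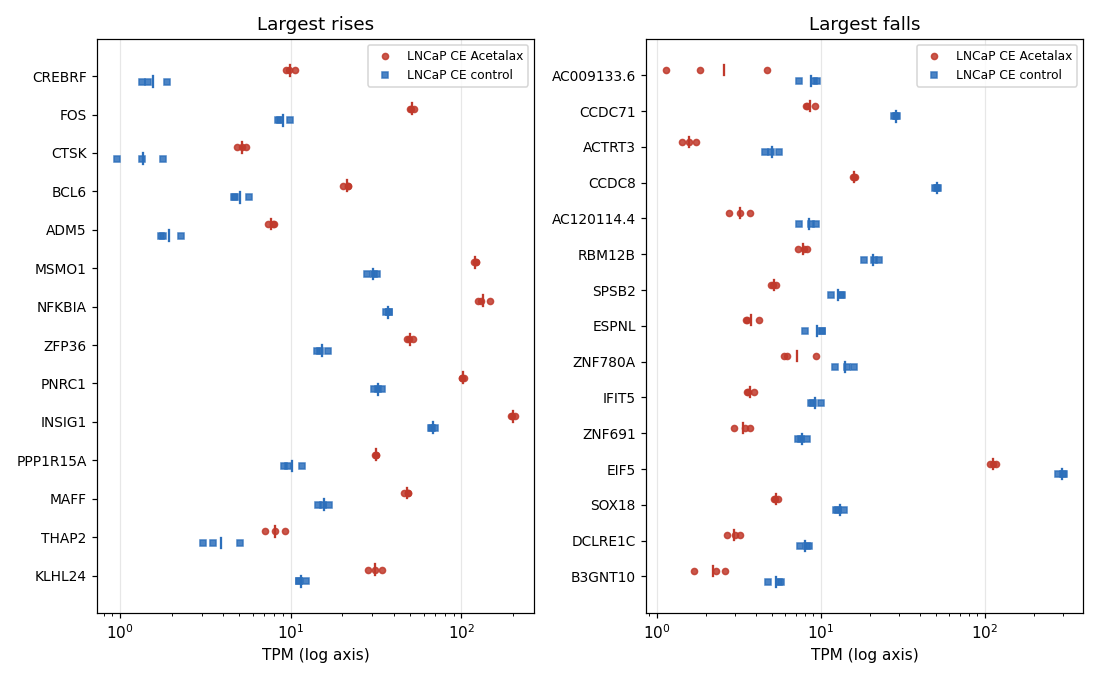
TPM on a log axis in the 3 LNCaP CE Acetalax libraries (circles) and the 3 LNCaP CE control libraries (squares) for 14 of the 15 largest rises and the 15 largest falls by the naming rule, with vertical ticks at the means. The groups are apart for all 29 genes because the rule required it.

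Genes of the integrated stress response and amino acid supply were more often higher than lower. In that pathway, phosphorylation of the initiation factor eIF2 lowers translation in general and favours that of ATF4, which switches on amino acid genes. Of 24 tested 16 were higher (66.7%) and 1 lower, with a median of 0.22. With 12 libraries 4 were higher and 0 lower, and on log2(TPM + 1) 8 and 1, with a median of 0.06. PPP1R15A, also called GADD34, which guides the phosphatase back to eIF2, stood at 31.08, 31.74 and 31.47 TPM with Acetalax, against 9.09, 9.65 and 11.66 TPM in controls (3.40-fold). ATF4 averaged 701 ± 37.2 TPM with Acetalax and 537 ± 46.9 TPM without it, and MTHFD2, a mitochondrial folate enzyme, 391 ± 19.7 and 310 ± 15.3 TPM. DDIT3, which encodes the death-linked factor CHOP, did not pass (28.4 ± 2.50 TPM with Acetalax, 33.6 ± 9.33 TPM without). CHAC1, which degrades glutathione, was 2.01-fold higher but scattered, at 70.64, 51.25 and 59.6 TPM with Acetalax and 28.93, 23.12 and 47.09 TPM without it. Control replicate 3 was the highest control for ATF4, CHAC1 and DDIT3. In the unfolded protein response of the endoplasmic reticulum 10 of 20 were higher (50%) and 1 lower (5%), and 2 and 0 with 12 libraries. The median of 0.08 turned to −0.07 on log2(TPM + 1), where 2 were higher and 8 lower. DNAJB9, an ER co-chaperone, was 2.21-fold higher and HERPUD1, of ER-associated degradation, 1.59-fold, while HSPA5 and XBP1 did not pass (0.02 and −0.00).

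Heat shock genes, in contrast, were lower more often than higher. These genes encode chaperones and are driven by HSF1 when proteins unfold. Of 18 tested 5 were higher and 8 lower (27.8% and 44.4%), with a median of 0.03. On log2(TPM + 1) 2 were higher and 9 lower, with a median of −0.09, and with 12 libraries 1 and 0. HSPA6, a strictly inducible HSP70, stood at 1.07, 0.78 and 1.04 TPM with Acetalax, against 3.98, 3.9 and 3.76 TPM in controls (3.68-fold lower, adjusted p = 2.64e-08; 0.217 with 12 libraries). HSPA1B, the main inducible HSP70, averaged 54.1 ± 1.86 TPM with Acetalax and 89.1 ± 5.06 TPM without it, and HSPA8, the constitutive form, 1620 ± 27.4 and 2120 ± 81.6 TPM. HSPA1B is nearly identical in sequence to HSPA1A, so the counts of these genes are uncertain. DNAJB4, a co-chaperone, went the other way, at 39.2 TPM with Acetalax and 25.5 TPM without it, as did HSF2 by 0.48.

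The promoters of HSPA6 and HSPA1B are shown because they carry the paired unit that HSF1 is known to bind, GAANNTTC, in capitals, over the same window and build. HSPA6 lies at chr1:161524290-161524589 and holds 2 matches, and HSPA1B lies at chr6:31827488-31827787, both on the plus strand.
HSPA6: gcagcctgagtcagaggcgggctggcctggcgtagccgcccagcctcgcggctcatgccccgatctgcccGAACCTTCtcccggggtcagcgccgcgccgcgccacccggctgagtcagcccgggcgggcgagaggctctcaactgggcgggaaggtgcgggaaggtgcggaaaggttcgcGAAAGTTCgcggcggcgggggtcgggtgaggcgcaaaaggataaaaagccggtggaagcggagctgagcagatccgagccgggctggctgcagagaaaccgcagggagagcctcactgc
HSPA1B: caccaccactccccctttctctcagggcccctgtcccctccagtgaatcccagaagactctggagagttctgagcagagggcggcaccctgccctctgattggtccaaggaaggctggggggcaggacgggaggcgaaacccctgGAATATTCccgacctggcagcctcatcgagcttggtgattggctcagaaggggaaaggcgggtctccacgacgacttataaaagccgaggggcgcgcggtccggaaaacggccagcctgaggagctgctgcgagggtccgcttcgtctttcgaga
The heat shock list too was chosen by known function, so its share is no test. The unit was in 7 of 17 heat shock promoters matched (41.2%) and in 6.77% of all 35116. Of those 7 genes, HSPA6, HSPA1B, HSPA8, DNAJA1 and CHORDC1 were called lower, and HSPA1A and HSPB1 were not called. The core of the sterol response element, TCACNCCAC, was found by contrast in 1 of 19 sterol list promoters, that of SREBF2, and in 1.13% of all.

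Among genes with a mean of at least 5 TPM in 1 group, the 15 largest falls included EIF5. This factor, which triggers GTP hydrolysis on the initiation complex when the start codon is found (chr14:103333544-103345025), was the most abundant of the 15, at 107.63, 112.64 and 116.25 TPM with Acetalax, against 300.48, 280.13 and 301.82 TPM in controls (2.25-fold lower by counts, adjusted p = 7.19e-14; 0.000691 with 12 libraries). CCDC71 stood at 8.16, 8.25 and 9.16 TPM with Acetalax, against 29.3, 28.57 and 27.79 TPM in controls. CCDC8, a scaffold of the 3M growth complex, stood at 16.18, 15.93 and 15.7 TPM with Acetalax, against 49.92, 51.15 and 51.72 TPM in controls. RBM12B, an RNA-binding protein, averaged 7.78 ± 0.516 TPM with Acetalax and 20.6 ± 2.17 TPM without it. All of these kept their call with the spread of 12 libraries. AC009133.6 had the largest fold change of the 15, −1.65 ± 0.30, but was scattered, at 4.72, 1.14 and 1.83 TPM with Acetalax and 7.37, 9.47 and 9.08 TPM without it. It overlaps AC120114.4, another of the 15 largest falls, on chromosome 16, and their counts are uncertain.

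The genes lower by at least 2-fold were also described by their structure, which the comparison did not use. Of 153 protein-coding genes lower by at least 2-fold, 31 had a single exon (20.3%), against 4.12% of the 243 higher by as much and 3.72% of all 13213 tested. These classes also differed in level, which was not matched. Median control levels were 1.6 TPM in the lower genes, 0.363 TPM in the higher genes and 18.6 TPM in all tested. The median exon number was 4 in the lower genes, 6 in the higher genes and 8 in all tested. Numbered ZNF genes, which encode zinc-finger DNA-binding proteins, made up 16.3% of the lower genes, 1.23% of the higher ones and 3.25% of all tested. Of 430 such genes tested, 55 were higher (12.8%) and 243 lower (56.5%), against 27.7% and 26% of all protein-coding genes tested. Their median log2 fold change was −0.31, and the median on log2(TPM + 1) was −0.31 as well. These shares were not matched for level either. This family and these structural features were looked at after the values were seen and carry no test.

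Of 15 regulators of transcription elongation 5 were higher (33.3%) and 4 lower (26.7%), near the 24.6% and 24.9% of all genes, and on log2(TPM + 1) 2 and 7. Single members differed more. P-TEFb, made of CDK9 and cyclin T, releases paused RNA polymerase. CDK9 stood at 32.79, 38.3 and 34.03 TPM with Acetalax, against 61.94, 61.68 and 60.54 TPM in controls (1.75-fold lower, adjusted p = 8.67e-10; 0.000231 with 12 libraries). BRD2, a bromodomain reader of acetylated histones, stood at 411.48, 415.89 and 414.99 TPM with Acetalax, against 227.44, 223.85 and 211.54 TPM in controls (1.92-fold higher). In the MYC and MAX network 5 of 12 were higher (41.7%) and 3 lower (25%), and 2 and 5 on log2(TPM + 1). The repressors MNT and MXD1 differed by 0.83 and 1.04, MGA by −0.72, and MYC itself stood at 176 TPM with Acetalax and 177 TPM without it. Interferon response genes were lower in 7 of 22 (31.8%) and higher in 3 (13.6%), against 24.9% and 24.6% of all genes. With 12 libraries 2 were lower and 0 higher, and on log2(TPM + 1) 7 and 2. IFIT1 averaged 4.16 ± 0.270 TPM with Acetalax and 8.97 ± 0.485 TPM without it, and IFIT3 10.0 ± 0.635 and 20.1 ± 1.05 TPM, whereas IRF1, a factor that NF-kB also induces, was higher at 122 TPM against 83.3 TPM. With 12 libraries IFIT1, IFIT3 and IRF1 lost their calls (adjusted p of 0.3, 0.0683 and 0.182).

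**Figure D4:**
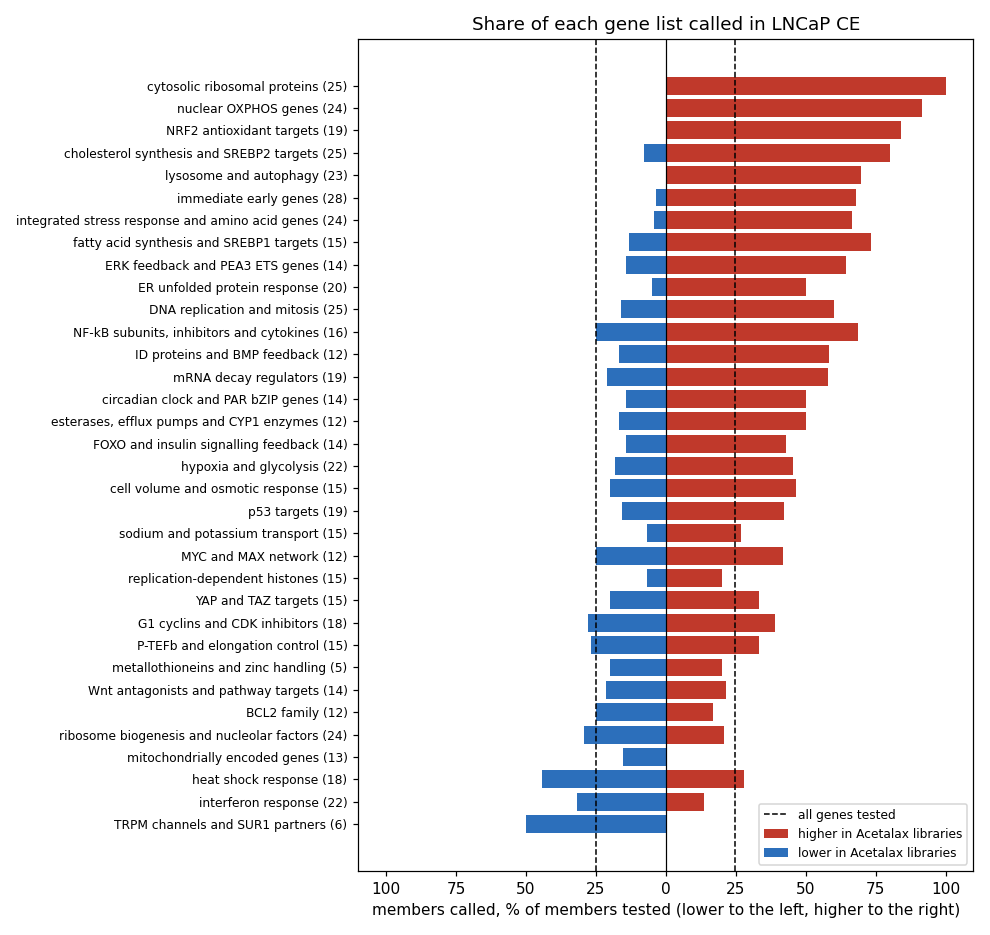
Share of the tested members of each gene list called higher (right) and lower (left) in LNCaP CE Acetalax libraries at an adjusted p of 0.05, with the number tested in brackets; dashed lines mark the same shares over all genes tested, 24.6% and 24.9%. Ribosomal protein, OXPHOS, NRF2 and cholesterol lists reach furthest right, and the small TRPM list and the heat shock list furthest left.

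Growth machinery showed small rises in its abundant parts. All 25 cytosolic ribosomal protein genes of the list were higher, by a median of 0.22, and RPLP0 averaged 3269 ± 43.3 TPM with Acetalax and 2795 ± 44.8 TPM without it. Ribosomal protein messages summed to 217300–220000 TPM with Acetalax and 196600–201100 TPM without it. Nuclear genes of oxidative phosphorylation were higher in 22 of 24 (median 0.18) and lower in 0, and 13 mitochondrially encoded genes were higher in 0 and lower in 2. With the spread of 12 libraries 1 ribosomal protein gene and 0 OXPHOS genes were called, and on log2(TPM + 1) 24 and 11 were higher and 0 lower. Whether their level has a part in these shares was not tested. NRF2 antioxidant targets were higher in 16 of 19, but in 5 with 2 lower on log2(TPM + 1) and in 2 with 12 libraries, and HMOX1, haem oxygenase, differed by 0.18. Of 24 nucleolar factors 5 were higher (20.8%) and 7 lower (29.2%), near the shares of all genes; on log2(TPM + 1) 1 was higher and 19 lower, and with 12 libraries 0 and 0. POLR1B, the second subunit of RNA polymerase I, averaged 29.7 ± 1.54 TPM with Acetalax and 56.8 ± 1.74 TPM without it. Lysosome and autophagy genes were higher in 16 of 23 (69.6%) and lower in 0 (median 0.13). With 12 libraries 2 were higher, and on log2(TPM + 1) 6, with a median of 0.01. SQSTM1, the autophagy receptor p62, was at 178 TPM with Acetalax and 116 TPM without it, and TFE3, a master factor of lysosome genes, at 42.9 and 30.6 TPM.

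Death and cell cycle lists were mixed, beside 24.6% higher and 24.9% lower over all genes. Of 19 p53 targets 8 were higher (42.1%) and 3 lower (15.8%), with a median of 0.07. On log2(TPM + 1) 6 were higher and 5 lower, with a median of −0.08, and with 12 libraries 2 and 0. BBC3, the BH3-only protein PUMA, stood at 52.33, 48.38 and 53.12 TPM with Acetalax, against 21.08, 21.33 and 21.98 TPM in controls (adjusted p = 1.48e-12). CDKN1A, the inhibitor p21, averaged 65.3 ± 1.31 TPM with Acetalax and 46.0 ± 0.782 TPM without it, while MDM2 did not pass (0.05). Among 18 G1 genes 7 were higher (38.9%) and 5 lower (27.8%) by counts, 2 and 8 on log2(TPM + 1), and 2 and 1 with 12 libraries. CDKN1B, the inhibitor p27, averaged 81.0 ± 0.376 TPM with Acetalax and 49.1 ± 1.86 TPM without it, and cyclin D1 96.1 ± 1.23 and 140 ± 3.02 TPM. Of 25 replication and mitosis genes 15 were higher (60%) and 4 lower (16%) by counts, 1 and 10 on log2(TPM + 1), and 0 with 12 libraries. In bulk RNA, fewer cells in a phase and less RNA per cell cannot be told apart.

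Of 12 tested genes of esterases, efflux pumps and CYP1 enzymes 6 were higher (50%) and 2 lower (16.7%), against 24.6% and 24.9% of all genes. With 12 libraries 2 were higher and 1 lower, and on log2(TPM + 1) 3 and 2. CES2, a carboxylesterase, stood at 17.42, 16.56 and 16.24 TPM with Acetalax, against 30.82, 33.51 and 29.7 TPM in controls (1.59-fold lower, adjusted p = 4.22e-09; 0.00106 with 12 libraries). Of targets of the aryl hydrocarbon receptor, CYP1A1 was at 1.36 TPM with Acetalax and 0.633 TPM without it, TIPARP at 10.9 and 6.94 TPM, and CYP1B1 at 53.1 and 74.8 TPM. Of 5 metallothionein and zinc genes tested 1 was higher (20%) and 1 lower (20%), against the same 24.6% and 24.9%. The higher gene was SLC30A1, the zinc exporter that zinc itself induces. It stood at 11.01, 12.35 and 12.32 TPM with Acetalax, against 8.64, 7.54 and 8.07 TPM in controls. MT2A did not pass (0.20).

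The other signalling and metabolic lists were mixed, beside 24.6% higher and 24.9% lower over all genes. Of 12 ID and BMP feedback genes 7 were higher (58.3%) and 2 lower (16.7%), and 5 and 3 on log2(TPM + 1). SMAD7, an inhibitory SMAD, was at 15.6 TPM with Acetalax and 9.09 TPM without it. Of 14 clock genes 7 were higher (50%) and 2 lower (14.3%), and 5 and 2 on log2(TPM + 1). BHLHE40, a repressor of the clock, was at 69.7 TPM with Acetalax and 43.4 TPM without it, NR1D2 differed by 0.80 and CRY2 by −0.52. Hypoxia and glycolysis genes were higher in 10 of 22 (45.5%) and lower in 4 (18.2%), but 4 and 7 on log2(TPM + 1), where the median of 0.08 turned to −0.08. ADM, adrenomedullin, was the clearest fall among them, at 0.78, 1.23 and 1 TPM with Acetalax, against 3.49, 2.88 and 2.91 TPM in controls. YAP and TAZ targets were higher in 5 of 15 (33.3%) and lower in 3 (20%), and Wnt genes in 3 and 3 of 14 (21.4% each). BCL2 family genes were higher in 2 (16.7%) and lower in 3 (25%) of 12. Replication-dependent histones, which lack poly(A) tails and are captured in part here, were higher in 3 (20%) and lower in 1 (6.67%) of 15. On log2(TPM + 1) the counts were 3 and 2 for YAP and TAZ, 0 and 4 for Wnt, 1 and 6 for BCL2 and 1 and 1 for histones. With the spread of 12 libraries at most 3 members of any of these lists were called in 1 direction.

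The response was next set beside those of LNCaP parental and PC3 CE cells, each with its own controls, by testing the difference of responses. Against LNCaP parental 249 of 19393 genes (1.28%) differed, and against PC3 CE 44 of 18207 (0.242%). These counts rest on single libraries: 2 LNCaP parental libraries, control 2 and Acetalax 3, and 1 PC3 CE library, Acetalax 1, stood apart from their groups (correlations down to 0.9844, 0.9832 and 0.9787), and without the first pair 3837 genes differed, and without the PC3 CE library 2610. Leaving out other libraries lowered them: to 79–82 against LNCaP parental without any 1 LNCaP CE library, and to 0 against PC3 CE without LNCaP CE control 1 (2079 at an unadjusted p under 0.05 in edgeR) or Acetalax 2 (1909). Of the 15 largest rises 14 had the same sign in LNCaP parental and 15 in PC3 CE, and 3 and 0 differed (10 and 11 without the libraries that stood apart). Of the 15 largest falls 14 and 14 had the same sign, and 0 and 1 differed (4 and 7 without them). Among these falls AC009133.6, CCDC8, ESPNL and SOX18 averaged under 0.25 TPM in both LNCaP parental groups, so their signs there say little. The share of same-sign responses over all genes is not given here. CREBRF was at 2.96 in LNCaP CE, 2.75 in LNCaP parental and 3.07 in PC3 CE on the log2 scale, EIF5 at −1.16, −1.20 and −0.51, and INSIG1 at 1.79, 2.02 and 2.02.

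**Figure D5:**
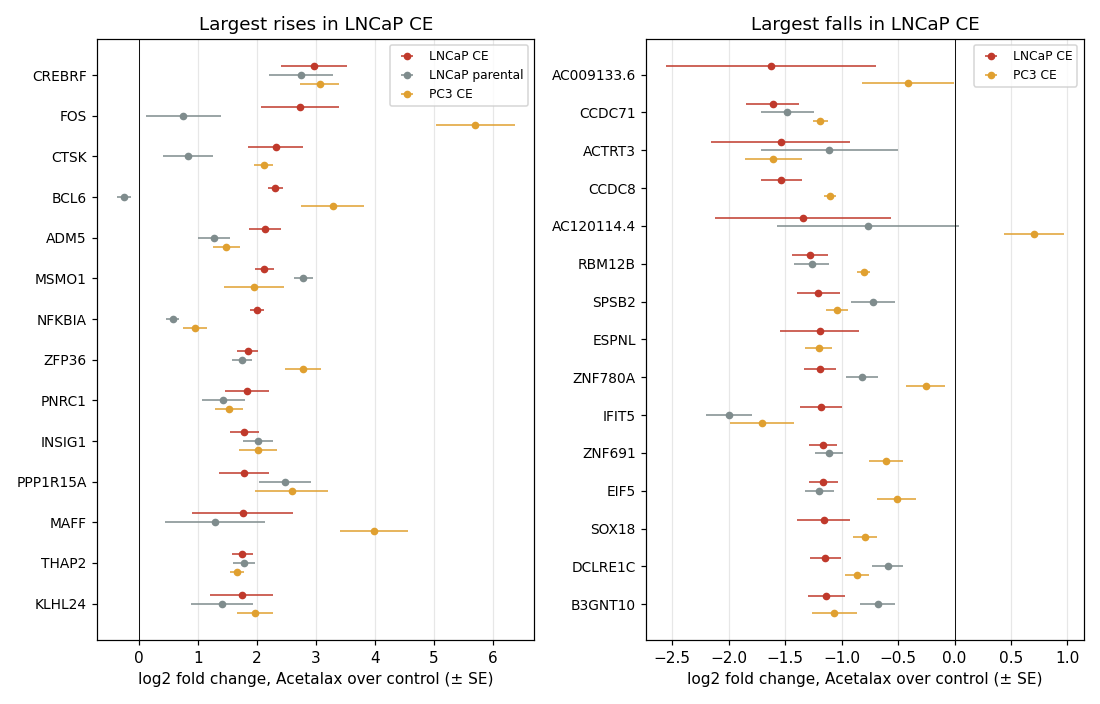
Log2 fold change of Acetalax over control (edgeR, with SE) for 14 of the 15 largest rises and the 15 largest falls of LNCaP CE, in LNCaP CE, LNCaP parental and PC3 CE; 4 LNCaP parental points with a mean under 0.25 TPM in both parental groups are not drawn. Most genes lie on the same side of 0 in all 3, and BCL6 lies at 2.31 in LNCaP CE and −0.25 in LNCaP parental.

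Of the 23 genes picked by the naming rule that differed from LNCaP parental, 21 lost the call in at least 1 alternative. BCL6 differed by 2.56 ± 0.17 on the log2 scale (adjusted p = 0.000111; 2.72 without the libraries that stood apart): it averaged 21.2 TPM with Acetalax and 5.02 TPM without it in LNCaP CE, and 30.4 and 39.1 TPM in LNCaP parental. NFKBIA rose in both but by more in LNCaP CE, with a difference of 1.43 ± 0.16 (adjusted p = 0.00273), and BIRC3 differed by 2.44 ± 0.26 (adjusted p = 0.00264). BTG1 was higher with Acetalax in LNCaP CE and at 138 TPM with it and 168 TPM without it in LNCaP parental (difference 1.39 ± 0.10, adjusted p = 0.000183). CCN1 rose less in LNCaP CE than in LNCaP parental (−1.21 ± 0.19, adjusted p = 0.0147). Both HSP70 genes named above were higher with Acetalax in LNCaP parental and lower in LNCaP CE: HSPA1B averaged 526 ± 334 TPM with Acetalax and 125 ± 5.35 TPM without it in LNCaP parental, and differed by −2.70 ± 0.56 (adjusted p = 0.0474), and HSPA6 by −6.36 ± 1.19 (adjusted p = 0.0318). CDK9 fell more in LNCaP CE (−0.50 ± 0.10, adjusted p = 0.0336). The calls of HSPA6, HSPA1B and CDK9 were lost without any 1 LNCaP CE library (adjusted p of 0.0863 to 0.135), and that of CCN1 without some of them. The TRPM4 difference did not pass (−0.28 ± 0.14, adjusted p = 0.487).

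Against PC3 CE, whose untreated profile was the closest, all 12 genes picked by the rule lost the call in at least 1 alternative. CCNG2 rose more in LNCaP CE (difference 0.91 ± 0.11, adjusted p = 0.00878), as did SLC38A2, the neutral amino acid carrier SNAT2 (0.82 ± 0.08, adjusted p = 0.0079). Without LNCaP CE control 1 the adjusted p of both was 0.0507, and without LNCaP CE Acetalax 2 it was 0.0565. SLC30A1 was higher with Acetalax in LNCaP CE and at 4.94 TPM with it and 6.03 TPM without it in PC3 CE (0.90 ± 0.12, adjusted p = 0.0149). SPRY4 rose less in LNCaP CE (−0.61 ± 0.07, adjusted p = 0.00878), and RBM12B fell more (−0.49 ± 0.08, adjusted p = 0.0447). The call of RBM12B was lost without each library left out in turn other than PC3 CE Acetalax 1, and those of SLC30A1 and SPRY4 without most of them. FOS was at 2.72 in LNCaP CE and 5.70 in PC3 CE, where it averaged 313 ± 330 TPM with Acetalax and 7.10 TPM without it; with that scatter the difference did not pass (−2.98 ± 0.80, adjusted p = 0.17), and without PC3 CE Acetalax 1 it was −1.61 (adjusted p = 1.16e-07). The TRPM4 difference did not pass here either (−0.20 ± 0.13, adjusted p = 0.452).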

How the data were processed

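RNA-seq of 24 libraries was used as deposited. The authors deposited RSEM expected counts and TPM per gene; STAR 2.7, RSEM, FastQC and the hg38 build are named per the submitters' processing notes. Expected counts, of which 10.2% were not whole, were rounded. TMM scaling, filterByExpr at a minimum count of 10 and edgeR 4.0.16 quasi-likelihood tests (R 4.3.3) were applied to the 6 LNCaP CE libraries, and beside it to all 12 LNCaP libraries, with Benjamini-Hochberg adjustment over all genes tested and a threshold of 0.05. The SE came from the fold change and its F value. Differences of responses were interaction terms. The fits were tested on simulated data. Alternatives were RLE scaling, no filter, a minimum count of 50, DESeq2 1.42.0, limma 3.58.1 on log2(TPM + 1) and log2(TPM + 0.1), a replicate block and leaving out each library; a median-centred limma fit was added after seeing the data.

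Summed counts per library were 45844310–57728014, so counting error is small for all but the rarest genes. Gene structure and coordinates are from GENCODE 29, which matched 58429 of 60660 features; promoters are RefSeq's (GRCh38.p14), from which 35116 were searched. The tables each held 1 column of no sample, which was not used.

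The comparison and the 41 gene lists were chosen with earlier results of these data known. Named genes are TRPM4, the 15 largest protein-coding rises and falls called, with a mean of at least 5 TPM in 1 group and groups apart in TPM, the 5 called members of each list with the smallest adjusted p, and the 5 largest differences of responses each way; list members outside this rule are given with their values as description and were chosen after those were seen. Some genes that the rule picks are not reported here; they stay in the counts.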

Additional observations from a re-analysis of the deposited data

Results flagged for a closer look

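Each result below is a difference of Acetalax responses between 2 kinds of cells that passed edgeR's test of the difference itself (adjusted p of 0.05), on the log2 scale, with mean TPM given for Acetalax first and control after it.

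Against LNCaP parental, LNCaP CE responded by more for BCL6 (2.56), NFKBIA (1.43), BIRC3 (2.44), BTG1 (1.39), SPRY2 (1.69), SPRY4 (1.19), CLDN4 (1.93) and AHRR (4.33). SPRY2 was at 273 and 204 TPM in LNCaP CE and at 0.437 and 1.01 TPM in LNCaP parental. SPRY4 was at 133 and 114 TPM in LNCaP CE and at 0.723 and 1.48 TPM in LNCaP parental. CLDN4 was at 1.04 and 0.283 TPM in LNCaP CE and at 259 and 241 TPM in LNCaP parental. AHRR was under 1 TPM in all groups. LNCaP CE went the other way for HSPA6 (−6.36), HSPA1B (−2.70) and MGA (−1.24). HSPA6 was at 13.4 ± 11.1 and 0.603 TPM in LNCaP parental. CCN1 rose by less in LNCaP CE (−1.21), and CDK9 fell by more (−0.50).

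The 10 largest differences against LNCaP parental include several where one kind of cells was near 0 TPM, so that the fitted difference depends on the prior count and is no bound. C1orf116 differed by 3.91 (adjusted p = 0.000317), with 0.163 and 0.04 TPM in LNCaP CE and 28.2 and 75.9 TPM in LNCaP parental, where it was lower with Acetalax. FHDC1 differed by 3.00, with 0.407 and 0.0933 TPM in LNCaP CE and 6.32 and 11.3 TPM in LNCaP parental. ZIK1 differed by 3.74, with 0.127 and 0.0133 TPM in LNCaP CE and 8.62 and 10.75 TPM in LNCaP parental, where its own response did not pass (adjusted p = 0.611). AC008012.1 differed by 7.21 and SKIDA1 by 3.09, with SKIDA1 at 29.5 and 34.0 TPM in LNCaP CE and 0.01 and 0.0867 TPM in LNCaP parental. IAH1 differed by −4.78; it was listed at 0 in LNCaP CE Acetalax libraries and averaged 0.177 TPM in LNCaP CE controls, against 61.1 and 60.2 TPM in LNCaP parental. FGF18 differed by −4.05 and CYBA by −3.63, both near 0 TPM in LNCaP parental. FHL2 differed by −3.97 (adjusted p = 3.41e-05), with 10.3 and 15.4 TPM in LNCaP CE and 4.78 ± 0.574 and 0.497 ± 0.0874 TPM in LNCaP parental.

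Against PC3 CE, LNCaP CE responded by more for CCNG2 (0.91), SLC30A1 (0.90), SLC38A2 (0.82; LNCaP CE 288 and 126 TPM, PC3 CE 931 and 660 TPM), ANKRD10 (0.68; responses of 1.60 in LNCaP CE and 0.92 in PC3 CE) and CLDN4 (2.41). The difference was negative for RBM12B (−0.49), which fell in both and by more in LNCaP CE (−1.29 against −0.80). It was negative too for SPRY4 (−0.61), which rose by less in LNCaP CE. SKIDA1 differed by −0.94, with 29.5 and 34.0 TPM in LNCaP CE and 56.8 and 32.4 TPM in PC3 CE. DNHD1 differed by −1.24, with 7.84 and 4.98 TPM in LNCaP CE and 8.09 and 2.36 TPM in PC3 CE. The zinc-finger genes ZNF69, ZNF234 and ZBTB25 differed by −1.13, −1.11 and −0.96. ZNF234 averaged 2.58 and 5.02 TPM in LNCaP CE and 3.98 and 3.84 TPM in PC3 CE.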

How the results depend on the processing

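The count of 7884 called genes kept within 1.5 times of itself under every alternative except the fit on all 12 LNCaP libraries (1436 called, 648 higher and 788 lower); without single libraries it ran from 7037 to 7595, with 3596 to 3819 higher and 3435 to 3776 lower. Genes higher numbered 1370 and 1374 on log2(TPM + 1) and log2(TPM + 0.1), against 3920. TRPM4, given below, is not counted among the 195 genes picked by the naming rule here. Of these 195, 119 lost their call in the 12-library fit, 34 on log2(TPM + 1) and 2 with DESeq2 (MT-ATP8 and BMF). With RLE scaling, without a filter or with the replicate block 0 of them lost it. The cause of these losses was not tested. LGR5 (−0.025 and −0.026), NDUFA9 (−0.0030 and −0.0030) and ELAVL3 (−0.10 and −0.15) reversed on log2(TPM + 1) and log2(TPM + 0.1). TRPM4 lost its call with RLE scaling (−0.20), DESeq2 (−0.20), log2(TPM + 1) (−0.31; −0.21 with the median set to 0), log2(TPM + 0.1) (−0.35), the replicate block (−0.21) and 12 libraries (−0.20); without single libraries it ran from −0.27 to −0.12. The 249 differences from LNCaP parental became 132 without a filter, 1082 with DESeq2, 481 on log2(TPM + 1), 3 with the replicate block, 3837 without both libraries that stood apart and 79 to 811 without single libraries; AC008012.1 (−0.36) and SKIDA1 (−0.093) reversed on log2(TPM + 1). The 44 differences from PC3 CE became 26 without a filter, 649 with DESeq2, 9 on log2(TPM + 1), 6 on log2(TPM + 0.1), 0 in edgeR with the replicate block (1806 at an unadjusted p under 0.05) and 0 to 2610 without single libraries; the 0 came without LNCaP CE control 1 (2079 unadjusted) and without LNCaP CE Acetalax 2 (1909 unadjusted). Replicate numbers did not pair the samples: same-numbered Acetalax and control libraries deviated together at correlations of −0.0164, −0.0188 and −0.0115.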

Other observations

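NDRG1, an androgen- and stress-regulated gene of the luminal prostate list, stood at 0.18, 0.40 and 11.97 TPM in LNCaP CE Acetalax replicates 1, 2 and 3, and at 0.60, 0.63 and 0.32 TPM in LNCaP CE control libraries, so that 1 library held most of its level.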
